A study of Mus musculus with 10 samples.

Results

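The genes described here are 10 genes of prostanoid synthesis, uptake, breakdown and reception (Ptgs1, Ptgs2, Ptgis, Ptges, Ptgds, Tbxas1, Slco2a1, Hpgd, Ptger4 and Ptgir), chosen by name and found as 10 of the 23284 gene symbols that the authors counted. They were measured in 3 populations of endothelial cells freshly sorted from untreated C57BL/6 mice of 6 to 8 weeks: LEC of lymph nodes (LN-LEC, 4 libraries), BEC of lymph nodes (LN-BEC, 3 libraries) and LEC of the diaphragm (D-LEC, 3 libraries). The nodes were inguinal, axillary, brachial, cervical and mesenteric, and were pooled. Both tissues were disrupted and digested, depleted of CD45+ cells with beads and sorted as CD31+ cells, PDPN (podoplanin) being present on LEC and absent from BEC. Each library came from cells of several mice, so its replicates are pools, and the p-values below measure the spread between pools. Libraries carry no label for batch, sorting day or animals shared between populations. The diaphragm was the 1 peripheral tissue sampled, so that tissue and population cannot be told apart for D-LEC.

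Prostanoids are lipid signals made on demand from arachidonic acid. A cyclooxygenase, encoded by Ptgs1 or Ptgs2, turns arachidonic acid into prostaglandin H2, and a terminal synthase then makes prostacyclin (Ptgis), prostaglandin E2 (Ptges), prostaglandin D2 (Ptgds) or thromboxane A2 (Tbxas1). The signals act on nearby cells through G protein-coupled receptors, among them the prostaglandin E2 receptor EP4 (Ptger4) and the prostacyclin receptor IP (Ptgir). Slco2a1 carries prostaglandins into cells, where the dehydrogenase encoded by Hpgd starts their breakdown. In vessels, prostacyclin and prostaglandin E2 are known for effects on tone, permeability and leukocyte traffic.

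The libraries held 22429940 to 48906070 counted fragments, and a count of 3 stood for 0.0613 to 0.134 CPM (counts scaled to library size). The deepest library was LN-LEC 4. The 6 LEC markers summed to 134735 to 151725 normalized counts in LN-LEC, 598942 to 622973 in D-LEC and 3240 to 10199 in LN-BEC, and the 6 BEC markers to 142459 to 145379 in LN-BEC, 1942 to 3434 in LN-LEC and 8112 to 10445 in D-LEC, so that all libraries carried the markers of their labels. LN-LEC 4 and LN-BEC 3 were the least typical libraries of their populations, with a chi-square per gene of 119 to 391 against the other libraries of their population, where other pairs within a population gave 10.5 to 42.1.

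All 10 genes passed the filter on low values (a mean normalized count of at least 1 in at least 1 population) and were tested with 15330 genes in all. Normalized counts are counts divided by size factors. A gene was called at an adjusted p under 0.05 (edgeR's quasi-likelihood test with Benjamini-Hochberg adjustment over all genes tested). Between LN-LEC and D-LEC, 8 of 10 prostanoid genes were called, 5 toward LN-LEC and 3 toward D-LEC, where 45.8% of all genes tested were called, 24.1% toward LN-LEC and 21.7% toward D-LEC. For LN-LEC against LN-BEC, 8 of 10 were called, 4 in each direction, against a background of 38.2%, of which 19.8% toward LN-LEC and 18.4% toward LN-BEC. Between D-LEC and LN-BEC, 6 of 10 were called, all toward LN-BEC, against 48.1% in all, 22.5% toward D-LEC and 25.6% toward LN-BEC. Called differences of at least 5-fold numbered 5, 4 and 4 of the 10 genes in these comparisons in turn, against 12.2%, 9.84% and 15.2% of all genes. The libraries of the populations compared did not overlap for 7, 8 and 7 of the 10 genes, against 50%, 44.9% and 56.1% of all genes. The median absolute log2 fold change of the 10 genes was 2.48, 1.83 and 1.49 in the same order, against 0.52, 0.43 and 0.58 over all genes tested. The 3 comparisons share libraries and are not independent of each other. The 10 genes were chosen with earlier results of these data known, so that they are not an independently drawn set. Mean levels were highest in LN-LEC for Ptges, Hpgd, Ptger4 and Ptgir, in LN-BEC for Ptgs1, Ptgds, Tbxas1 and Slco2a1, and in D-LEC for Ptgs2 and Ptgis.

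**Figure D1:**
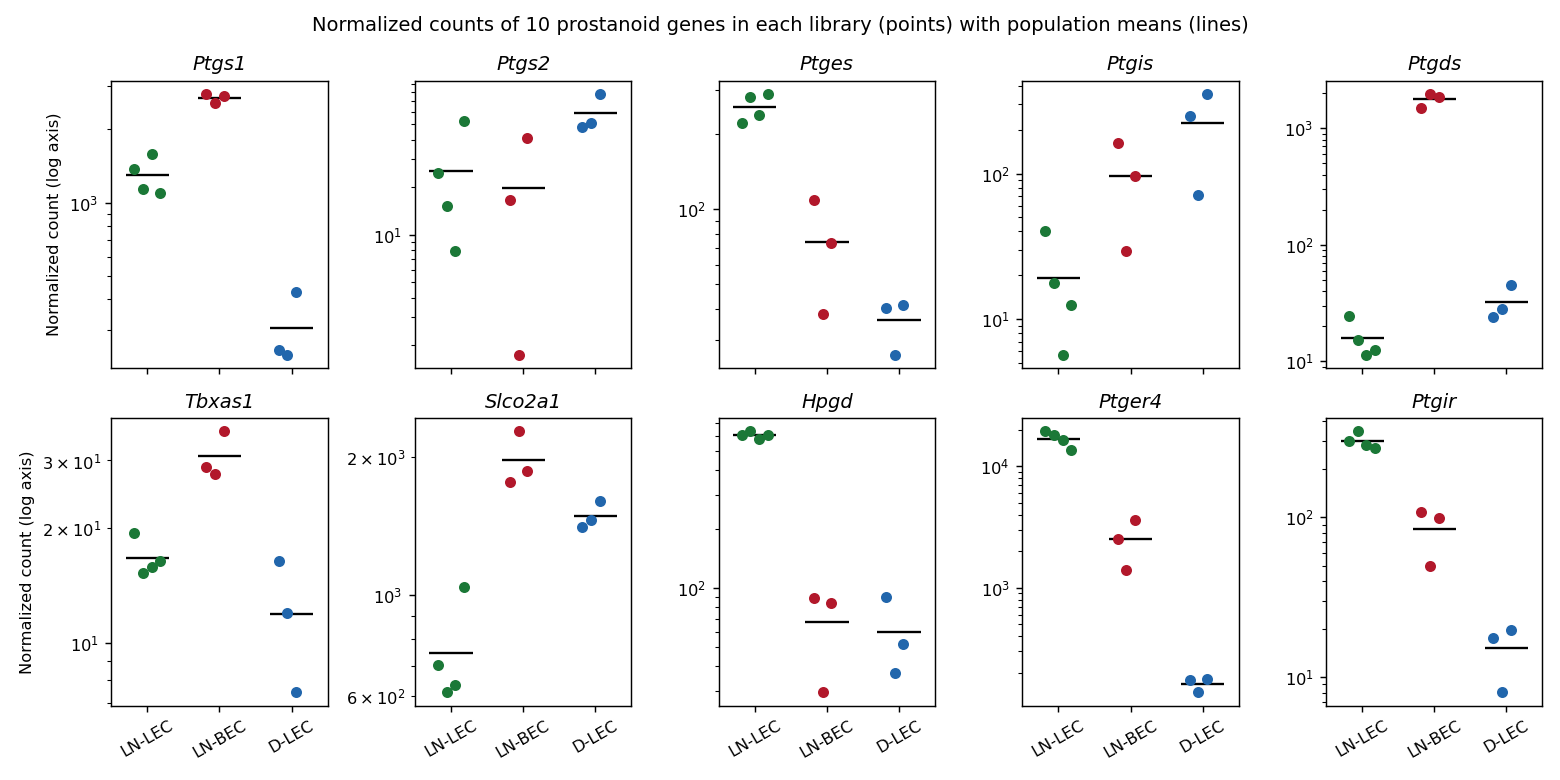
Normalized counts (log axis, a scale of its own for each gene) of the 10 prostanoid genes in each library (points) of the 3 populations, with population means (lines). Ptges, Hpgd, Ptger4 and Ptgir lie highest in all 4 LN-LEC libraries, Ptgds lies at 1503 to 1973 in LN-BEC and below 50 in every other library, and Ptgs2 and Ptgis are spread widely within populations.

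Ptgs1 encodes the cyclooxygenase that is made constitutively in many cells. It lies on chr2:36085946-36107789, plus strand, in the mm9 build of the files. Ptgs1 was at 1375, 1140, 1579.6 and 1093 normalized counts in LN-LEC 1 to 4, at 2787, 2568 and 2725 in LN-BEC 1 to 3, and at 248, 236 and 430.5 in D-LEC 1 to 3. The 3 populations did not overlap, with LN-BEC highest and D-LEC lowest. LN-BEC exceeded LN-LEC by 2.06-fold (LN-LEC over LN-BEC, log2 fold change −1.04, SE 0.19, adjusted p = 0.00111 by edgeR). LN-LEC in turn exceeded D-LEC by 4.28-fold (log2 2.10, SE 0.21, adjusted p = 1.01e-05), and LN-BEC exceeded D-LEC by 8.79-fold (adjusted p = 4.87e-07). Ptgs1 is also abundant in platelets, and the 5 platelet markers summed to 1257 to 1823 normalized counts in LN-BEC, 967 to 1195 in LN-LEC and 101 to 235 in D-LEC. That order was set by Pf4 (1528 ± 285 in LN-BEC, SD, n = 3, 861 ± 86.5 in LN-LEC and 74.4 ± 32.6 in D-LEC), and the 5 genes had no common order. Ppbp was highest in D-LEC (55.5 ± 39.6, with 20.8 ± 3.72 in LN-BEC and 2.36 ± 2.83 in LN-LEC), and Gp1ba in LN-LEC (217 ± 49.8, with 32.7 ± 6.14 in LN-BEC and 15.3 ± 4.41 in D-LEC). The platelet receptor gene Gp6 was at 0 in every lymph node library and Gp9 at 0 in every LN-LEC library. The part of platelet RNA was not tested.

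Ptgs2 encodes the inducible cyclooxygenase and is itself an immediate early gene, one that is transcribed within minutes of a stimulus. Its span is chr1:151947254-151955142, plus strand. Levels were low: 24.6, 15.2, 7.92 and 52.8 normalized counts in LN-LEC, 16.6, 1.73 and 41.0 in LN-BEC (19, 2 and 39 counts), and 47.9, 51.1 and 77.7 in D-LEC. LN-LEC 4 alone reached the D-LEC range, and the D-LEC libraries lay above all 3 LN-BEC libraries. No comparison was called. The log2 fold change was −1.16 (SE 0.74, 95% interval −2.79 to 0.47, adjusted p = 0.227 by edgeR) for LN-LEC over D-LEC, 0.44 (SE 0.79, 95% interval −1.30 to 2.17, adjusted p = 0.707) for LN-LEC over LN-BEC, and 1.60 (SE 0.82, 95% interval −0.22 to 3.41, adjusted p = 0.135) for D-LEC over LN-BEC. These intervals include differences of several fold.

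Ptgs2 depended on LN-LEC 4 and LN-BEC 3. With both left out, D-LEC was called higher than LN-BEC (adjusted p = 0.00544 by edgeR) and higher than LN-LEC (adjusted p = 0.0151), and without LN-BEC 3 alone, D-LEC was called higher than LN-BEC (adjusted p = 0.0230). Without LN-LEC 4 or without LN-BEC 2, the difference between LN-LEC and LN-BEC changed sign, as no call in either case. Ptgs2 is an immediate early gene, induced by stimulation without new protein synthesis. A list of 12 genes held other such genes (Fos, Fosb, Jun, Junb, Egr1, Atf3, Ier2, Nr4a1, Dusp1 and Zfp36) and the heat shock genes Hspa1a and Hspa1b. Their sum was 41882, 31801, 34258 and 90229 normalized counts in LN-LEC, 112450, 94104 and 176314 in LN-BEC, and 257959, 287298 and 270488 in D-LEC. LN-LEC 4 and LN-BEC 3 had the highest sum of their populations as well as the most Ptgs2, whereas in D-LEC the highest sum was in D-LEC 2 and the most Ptgs2 in D-LEC 3. LN-BEC 2, at 1.73 normalized counts of Ptgs2, had a larger sum than LN-LEC 4, at 52.8. Of the 12 genes, 12 were called higher in D-LEC than in LN-LEC. D-LEC exceeded LN-BEC for 6 and LN-BEC exceeded LN-LEC for 6, with none called in the opposite directions, while Ptgs2 itself was called in none of the 3 comparisons. The part of tissue digestion and sorting in these values was not tested.

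**Figure D2:**
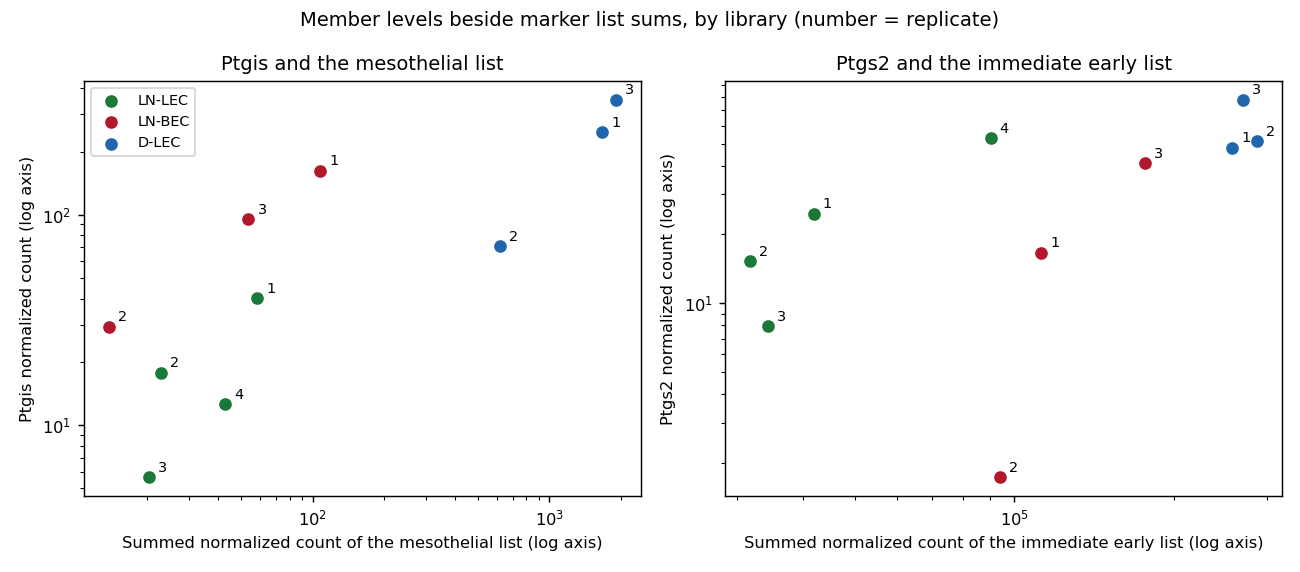
Left, Ptgis against the summed normalized count of 5 mesothelial markers. Right, Ptgs2 against the summed normalized count of 12 genes, which are immediate early genes and the heat shock genes Hspa1a and Hspa1b. Each point is 1 library, numbered by replicate, and both axes are logarithmic. D-LEC 2 has the least of both Ptgis and mesothelial RNA among the D-LEC libraries. LN-LEC 4 and LN-BEC 3 have both the most Ptgs2 and the highest sum of the 12 genes in their populations.

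Among the terminal synthases, Ptges, the microsomal prostaglandin E synthase, was highest in LN-LEC. It lies on chr2:30744991-30758817, minus strand. Normalized counts were 222, 282, 239 and 289.8 in LN-LEC, 109, 38.1 and 73.5 in LN-BEC, and 40.4, 26.1 and 41.3 in D-LEC. Every LN-LEC library exceeded every other library, while LN-BEC 2 fell among the D-LEC libraries. LN-LEC exceeded D-LEC in Ptges by 7.28-fold (log2 2.86, SE 0.32, adjusted p = 6.67e-06 by edgeR) and LN-BEC by 3.54-fold (log2 1.82, SE 0.30, adjusted p = 0.000233). LN-BEC exceeded D-LEC by 2.05-fold (adjusted p = 0.0194), a call that was lost without LN-BEC 1 (adjusted p = 0.127), without D-LEC 2 (adjusted p = 0.0752) and when only these 2 populations were fitted (adjusted p = 0.0736).

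Ptgis, the prostacyclin synthase, took the opposite order. Its span is chr2:167028696-167066037, minus strand. LN-LEC held 40.2, 17.8, 5.65 and 12.6 normalized counts, LN-BEC 162, 29.4 and 95.6, and D-LEC 247, 71.1 and 352. The D-LEC libraries lay above all LN-LEC libraries, and both ranges overlapped that of LN-BEC. D-LEC exceeded LN-LEC in Ptgis by 11.9-fold (LN-LEC over D-LEC, log2 −3.58, SE 0.79, adjusted p = 0.00516 by edgeR), and the log2 value was −4.19 without LN-LEC 1, the highest LN-LEC library. Between D-LEC and LN-BEC the log2 difference of 1.22 (SE 0.76, 95% interval −0.51 to 2.95) was not called (adjusted p = 0.221). The 5.12-fold excess of LN-BEC over LN-LEC had an adjusted p of 0.0430, which was lost without LN-LEC 2 (adjusted p = 0.0924), LN-LEC 3 (0.0914), LN-LEC 4 (0.115), LN-BEC 1 (0.159), LN-BEC 3 (0.0841) or D-LEC 1 (0.0662).

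Mesothelial cells, which line the diaphragm, and fibroblasts also express Ptgis. The 5 mesothelial markers (Msln, Upk3b, Upk1b, Lrrn4 and Wt1) were all called higher in D-LEC than in either lymph node population. Their sum was 1671, 618 and 1910 normalized counts in D-LEC 1 to 3, 108, 13.8 and 53.6 in LN-BEC 1 to 3, and 20.4 to 58.3 in LN-LEC. Within D-LEC and within LN-BEC, the sum ranked the libraries as Ptgis did. Within LN-LEC it did not: LN-LEC 4 had a higher sum than LN-LEC 2 (42.7 and 22.9) but less Ptgis. The 6 fibroblast and pericyte markers summed to 376 to 1303 in D-LEC, 5413 to 7145 in LN-BEC and 3352 to 5961 in LN-LEC. Within LN-LEC, this sum ranked the libraries as Ptgis did, at 5961, 5458, 3352 and 4780 in LN-LEC 1 to 4. D-LEC 2 and LN-BEC 2 had the lowest sum of their populations, as of Ptgis. The highest sums were in D-LEC 1 and LN-BEC 3, whereas the most Ptgis was in D-LEC 3 and LN-BEC 1. Most of the sum in lymph nodes was the pericyte gene Rgs5 (66.4 ± 32.3 in D-LEC, 4393 ± 304 in LN-BEC), and 4 of the 6 were called lower in D-LEC than in each lymph node population. The fibroblast collagen gene Col1a1 was at 450.0 ± 385 in D-LEC, 518 ± 253 in LN-BEC and 444.6 ± 159 in LN-LEC, and was not called. Skeletal muscle markers (5 genes) summed to 777 to 979 in D-LEC and to at most 15.8 in lymph node libraries. The part of other cells in the Ptgis values was not tested. In these bulk samples, fewer cells of a type and less RNA per cell cannot be told apart.

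Ptgds, the lipocalin-type prostaglandin D synthase, had the largest ratio of the highest to the lowest population mean among the 10 genes, at 112, with 104 for Ptger4. It lies on chr2:25322232-25325269, minus strand. LN-BEC had 1503, 1973 and 1862 normalized counts, LN-LEC 24.6, 15.2, 11.3 and 12.6, and D-LEC 24.0, 28.1 and 45.4. No LN-BEC library overlapped either LEC population, whereas LN-LEC 1 lay just above D-LEC 1. LN-BEC exceeded LN-LEC by 114-fold (LN-LEC over LN-BEC, log2 −6.83, SE 0.23, adjusted p = 1.40e-10 by edgeR) and D-LEC by 53.3-fold (adjusted p = 3.99e-10). The small difference between the LEC populations, 2.14-fold higher in D-LEC, was called (adjusted p = 0.00769) but not without D-LEC 3 (adjusted p = 0.0642) or when only these 2 populations were fitted (adjusted p = 0.0522). LN-LEC carried 0.896% of the LN-BEC level of Ptgds and 1.35 to 3.77% of that of the 6 BEC markers, and the part of BEC RNA in the LN-LEC values was not tested. Mast cells can express prostaglandin D synthases, and the mast cell markers summed to 0.875, 109 and 147 in LN-BEC 1 to 3. Their part was not tested.

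Tbxas1, the thromboxane synthase, was low throughout. Its span is chr6:38868985-39034578, plus strand. It stood at 19.4, 15.2, 15.8 and 16.3 normalized counts in LN-LEC, 28.9, 27.7 and 35.7 in LN-BEC and 16.4, 12.02 and 7.44 in D-LEC, where D-LEC 3 had only 9 counts. All LN-BEC libraries exceeded all LEC libraries. LN-BEC exceeded D-LEC by 2.61-fold (adjusted p = 0.0133 by edgeR), which was lost without D-LEC 3 (adjusted p = 0.0599). Neither the 1.81-fold excess of LN-BEC over LN-LEC (LN-LEC over LN-BEC, log2 −0.86, 95% interval −1.66 to −0.06, adjusted p = 0.0851) nor that of LN-LEC over D-LEC (log2 0.52, 95% interval −0.34 to 1.38, adjusted p = 0.306) was called. Tbxas1 is expressed by platelets and macrophages. Leukocyte markers (7 genes) summed to 579 to 931 in LN-BEC, 83.0 to 110.4 in LN-LEC and 13.2 to 60.5 in D-LEC, and macrophage markers (6 genes) to 108 to 138, 156 to 201 and 119 to 240, so that only the former were highest in LN-BEC. Their part was not tested.

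Slco2a1, the prostaglandin transporter, was lower in LN-LEC than in both other populations. It lies on chr9:102910819-102990179, plus strand. Normalized counts were 701, 612, 635 and 1038 in LN-LEC, 1764, 2269 and 1860.1 in LN-BEC, and 1403, 1453 and 1604 in D-LEC. The 3 ranges did not overlap. LN-LEC were 2.59-fold below LN-BEC (log2 −1.37, SE 0.17, adjusted p = 3.29e-05 by edgeR) and 1.95-fold below D-LEC (log2 −0.97, SE 0.17, adjusted p = 0.000513). D-LEC and LN-BEC differed by −0.41 on the log2 scale (SE 0.18, 95% interval −0.80 to −0.01), which was not called (adjusted p = 0.0818). This difference was called without LN-LEC 4 (adjusted p = 0.00793), with LN-LEC 4 and LN-BEC 3 left out (adjusted p = 0.0106) and when only D-LEC and LN-BEC were fitted (adjusted p = 0.0239).

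Hpgd, the 15-hydroxyprostaglandin dehydrogenase that inactivates prostaglandins, was the steadiest of the genes high in LN-LEC. Its span is chr8:58773349-58799843, plus strand. LN-LEC had 604, 632, 577 and 609.8 normalized counts, a coefficient of variation of 3.77%. LN-BEC had 89.3, 29.4 and 84.0, and D-LEC had 90.8, 37.1 and 52.1. All LN-LEC libraries lay far above the others, which overlapped. LN-LEC exceeded D-LEC by 10.4-fold (log2 3.38, SE 0.37, adjusted p = 2.24e-05 by edgeR) and LN-BEC by 9.097-fold (log2 3.19, SE 0.36, adjusted p = 3.37e-05). D-LEC and LN-BEC did not differ past the threshold (log2 −0.20, 95% interval −1.06 to 0.67, adjusted p = 0.706), and the sign turned without LN-BEC 1 or without D-LEC 2.

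Ptger4, the EP4 receptor that couples to cyclic AMP, was the most abundant of the 10 genes in LN-LEC. It lies on chr15:5183404-5193831, minus strand. It reached 19366, 18268, 16441 and 13676 normalized counts in LN-LEC, 2501, 1399 and 3636 in LN-BEC and 174, 137 and 176 in D-LEC. The populations were far apart and did not overlap. LN-LEC exceeded D-LEC in Ptger4 by 106-fold (log2 6.72, SE 0.38, adjusted p = 5.66e-07 by edgeR) and LN-BEC by 6.82-fold (log2 2.77, SE 0.30, adjusted p = 6.92e-05), while LN-BEC exceeded D-LEC by 15.5-fold (D-LEC over LN-BEC, log2 −3.95, SE 0.34, adjusted p = 1.06e-05). The LN-BEC libraries ranked for Ptger4 as for the sum of the LEC markers, which was 4850, 3240 and 10199 in LN-BEC 1 to 3. They held 14.8% of the LN-LEC level of Ptger4 (8.26 to 21.5% by library), compared with 2.53 to 3.40% of Pdpn, Lyve1, Prox1, Reln and Mmrn1 and 14.4% of Flt4. The part of LEC RNA in these libraries was not tested beyond these shares.

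Ptgir, the prostacyclin receptor, followed the same order at a lower level. Its span is chr7:17491839-17496254, plus strand. Normalized counts were 299, 345, 286 and 271 in LN-LEC, 108, 49.3 and 98.7 in LN-BEC, and 17.7, 8.02 and 19.8 in D-LEC (8 to 24 counts). Again no library of one population overlapped another population. LN-LEC exceeded D-LEC by 19.9-fold (log2 4.31, SE 0.34, adjusted p = 1.90e-07 by edgeR) and LN-BEC by 3.56-fold (log2 1.83, SE 0.28, adjusted p = 0.000131), and LN-BEC exceeded D-LEC by 5.57-fold (adjusted p = 4.24e-05). The RNAs of the receptor and its ligand's synthase thus stood in opposite orders across the LEC populations, with Ptgir higher in LN-LEC and Ptgis higher in D-LEC. Mesothelial markers were also higher in D-LEC, and the part of other cells in the Ptgis values was not tested.

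**Figure D3:**
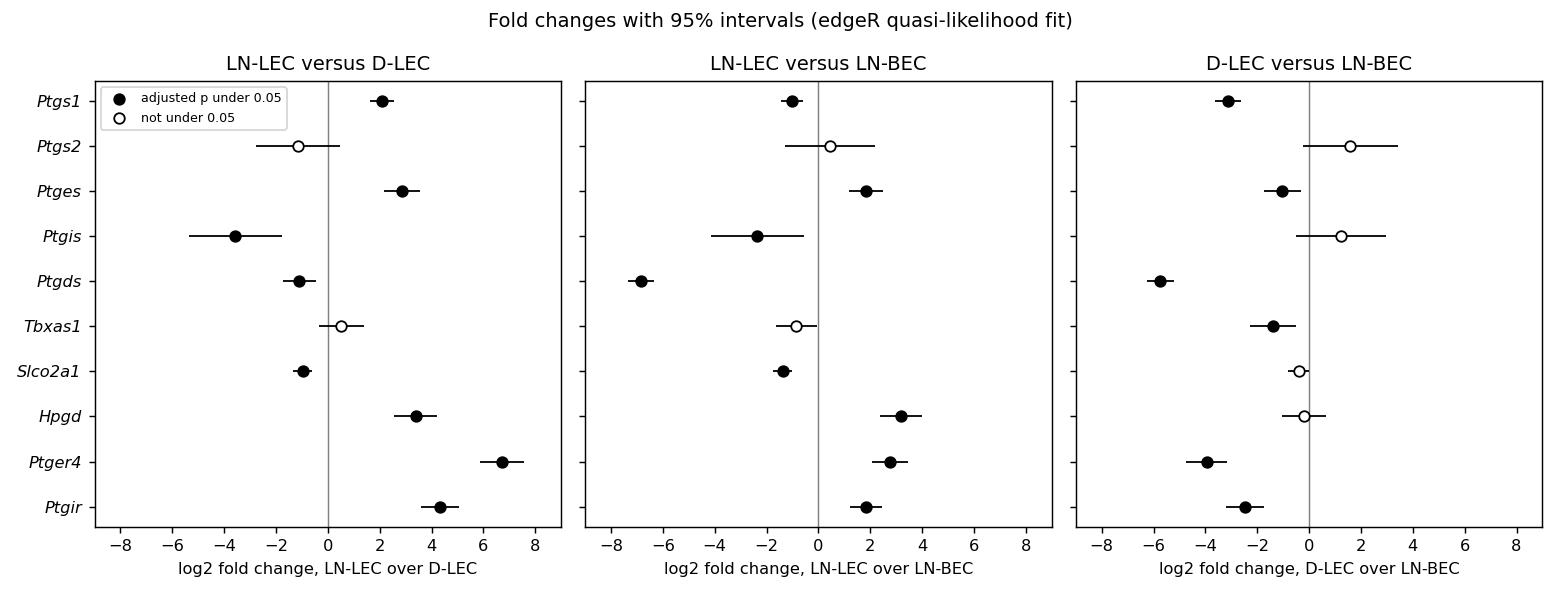
Log2 fold changes of the 10 genes with 95% intervals from the edgeR quasi-likelihood fit, for LN-LEC over D-LEC, LN-LEC over LN-BEC and D-LEC over LN-BEC. Filled points have an adjusted p under 0.05 (8, 8 and 6 genes), and in the comparison of D-LEC with LN-BEC all 6 filled points lie on the LN-BEC side.

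The 4 genes that were highest in LN-LEC are shown here with the 250 bases before their start sites, beside Ptgds, the gene with the largest contrast toward LN-BEC. The sequences are from RefSeq's GRCm38.p6 build, read along the gene's strand, and 9 of the 10 genes had an entry (not Ptgis). Capitals mark GGGCGG, the core of the GC box, read on either strand (CCGCCC on the other), and in Ptger4 also CCAAT. The windows are chr15:5244188-5244437 (Ptger4, minus strand), chr7:16906240-16906489 (Ptgir, plus strand), chr2:30903298-30903547 (Ptges, minus strand), chr8:56294302-56294551 (Hpgd, plus strand) and chr2:25469750-25469999 (Ptgds, minus strand).
Ptger4: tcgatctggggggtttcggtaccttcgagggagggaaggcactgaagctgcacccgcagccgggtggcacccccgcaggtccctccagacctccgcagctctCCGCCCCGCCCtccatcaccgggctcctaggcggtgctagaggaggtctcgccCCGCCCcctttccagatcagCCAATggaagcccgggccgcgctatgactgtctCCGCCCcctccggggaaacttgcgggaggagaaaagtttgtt
Ptgir: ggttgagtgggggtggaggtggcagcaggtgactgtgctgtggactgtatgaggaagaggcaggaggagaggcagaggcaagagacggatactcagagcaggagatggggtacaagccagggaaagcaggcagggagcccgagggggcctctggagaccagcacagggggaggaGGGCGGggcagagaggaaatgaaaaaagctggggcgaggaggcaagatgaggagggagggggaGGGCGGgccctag
Ptges: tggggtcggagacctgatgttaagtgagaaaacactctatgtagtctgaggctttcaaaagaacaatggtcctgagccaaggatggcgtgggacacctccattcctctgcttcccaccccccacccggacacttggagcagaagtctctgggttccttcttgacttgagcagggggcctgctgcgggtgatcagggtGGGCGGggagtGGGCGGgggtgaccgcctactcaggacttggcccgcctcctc
Hpgd: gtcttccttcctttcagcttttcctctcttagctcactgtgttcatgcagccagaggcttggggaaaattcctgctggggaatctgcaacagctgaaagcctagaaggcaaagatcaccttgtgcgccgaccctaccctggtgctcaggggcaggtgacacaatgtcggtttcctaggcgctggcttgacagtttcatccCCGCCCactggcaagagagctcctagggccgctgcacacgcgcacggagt
Ptgds: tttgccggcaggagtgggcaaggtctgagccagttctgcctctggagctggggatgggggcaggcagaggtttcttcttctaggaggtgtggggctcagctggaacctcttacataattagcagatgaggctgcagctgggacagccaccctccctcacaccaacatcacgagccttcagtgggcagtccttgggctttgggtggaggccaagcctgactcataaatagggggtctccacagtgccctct

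Ptger4 held GGGCGG at 4 places, all on the other strand and 2 of them overlapping by 1 base, and CCAAT at −75 to −71 from the start site. Ptges and Ptgir each held GGGCGG at 2 places, and Hpgd at 1. Over all 32851 windows of this length, 32.7% held GGGCGG on either strand and 33.8% held CCAAT. Among the genes not highest in LN-LEC, Ptgs2 and Slco2a1 held GGGCGG too. Slco2a1 also had TATAAA at −29 to −24 and Tbxas1 had it at −11 to −6, which 12.4% of all windows held. The looser form TATAAN, which includes the former, was in 22.7% of all windows. The E-box motif CACGTG, held by 6.02% of windows, and the cyclic AMP response motif ACGTCA, held by 6.47%, were in none of the 9 windows. Sequence outside the windows was not searched, so these genes may hold the motifs elsewhere. Ptgds and Ptgs1 had none of the 6 motifs searched, each on both strands. The GC content was 66.8% for Ptger4, 63.6% for Ptgir, 59.6% for Ptges, 58.4% for Ptgds and 56.8% for Hpgd, where the median window had 52.4%.

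Levels were compared between genes on a length scale, as fragments per kilobase of exon per unit of library size (FPKM). In LN-LEC, Ptger4 was at 187 ± 27.1 (SD, n = 4), above 98.2% of the genes tested, and made up 82.7% of the summed FPKM of the 10 genes. Ptgs1 followed at 14.8 ± 2.55 and Hpgd at 11.5 ± 0.448. LN-BEC divided the sum among Ptgds (47.6%, 71.5 ± 10.1, n = 3), Ptgs1 (20.3%), Ptger4 (18.2%) and Slco2a1 (10.5%). In D-LEC the sum was led by Slco2a1 (48.0%, 11.97 ± 0.841, n = 3), Ptgis (16.6%, 4.14 ± 2.63) and Ptgs1 (13.9%, 3.46 ± 1.23). The leading gene of the set thus was a receptor in LN-LEC, a synthase in LN-BEC and a transporter in D-LEC.

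Ratios between members were also taken within each library, on counts per kilobase after adding 0.5 to each count, which cancels the scaling of the library. A set of 4 was chosen by role, tested with an exact permutation test over all 4200 assignments of the libraries to the populations, and adjusted over the 4 ratios. Their genes were chosen with earlier results of these data known, which the p-values do not allow for. The ratio of Ptgis to Ptges, prostacyclin synthase to prostaglandin E synthase, had a geometric mean of 0.127 in LN-LEC, 10.8 in D-LEC and 2.38 in LN-BEC. It was 0.383, 0.136, 0.0542 and 0.0925 in LN-LEC 1 to 4, 3.08, 1.61 and 2.70 in LN-BEC 1 to 3, and 12.6, 5.62 and 17.6 in D-LEC 1 to 3. Ptges RNA thus exceeded Ptgis RNA in all 4 LN-LEC libraries and was exceeded by it in all 6 others (exact permutation p = 0.000476, the smallest that these assignments can give, adjusted p = 0.000952). The ratio leaves out the other prostaglandin E synthase genes. In LN-LEC, D-LEC and LN-BEC, Ptges2 was at 4.33, 5.53 and 3.06 FPKM. Ptges was at 2.32, 0.320 and 0.652 FPKM and Ptgis at 0.356, 4.14 and 1.76 FPKM. Unlike Ptges, Ptges2 was called higher in D-LEC than in LN-LEC (adjusted p = 0.0447 by edgeR). A ratio within a library does not cancel RNA of other cells, whose part was not tested.

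The ratio of the receptors, Ptger4 to Ptgir, was 63.0 in LN-LEC, 12.4 in D-LEC and 32.4 in LN-BEC, without overlap between the populations (exact permutation p = 0.000476, adjusted p = 0.000952). EP4 RNA was in excess in every library, from 9.80 in D-LEC 3 to 72.5 in LN-LEC 1. The ratio of Ptgs1 to Ptgs2 was 90.1 in LN-LEC, 7.33 in D-LEC and 338 in LN-BEC (exact permutation p = 0.00667, adjusted p = 0.00667). D-LEC libraries lay between 6.65 and 7.99, and LN-LEC (29.8 to 269.7) overlapped LN-BEC (95.1 to 1719.7, the highest resting on the 2 counts of Ptgs2 in LN-BEC 2). The ratio of Ptges to Hpgd was below 1 in every library. Its geometric means were 0.200 in LN-LEC, 0.298 in D-LEC and 0.525 in LN-BEC (exact permutation p = 0.000952, adjusted p = 0.00127), with LN-LEC and D-LEC overlapping. This ratio leaves out the other prostaglandin E synthase genes and is not one of all synthesis to breakdown. Ptges3 alone was at 148, 176 and 162 FPKM in LN-LEC, D-LEC and LN-BEC, where Hpgd was at 11.5, 1.13 and 1.27. Each test asks whether the 3 populations differ at all. Between single populations the smallest possible two-sided p was 0.0571 for 4 against 3 libraries and 0.1 for 3 against 3, so that no pair could pass.

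**Figure D4:**
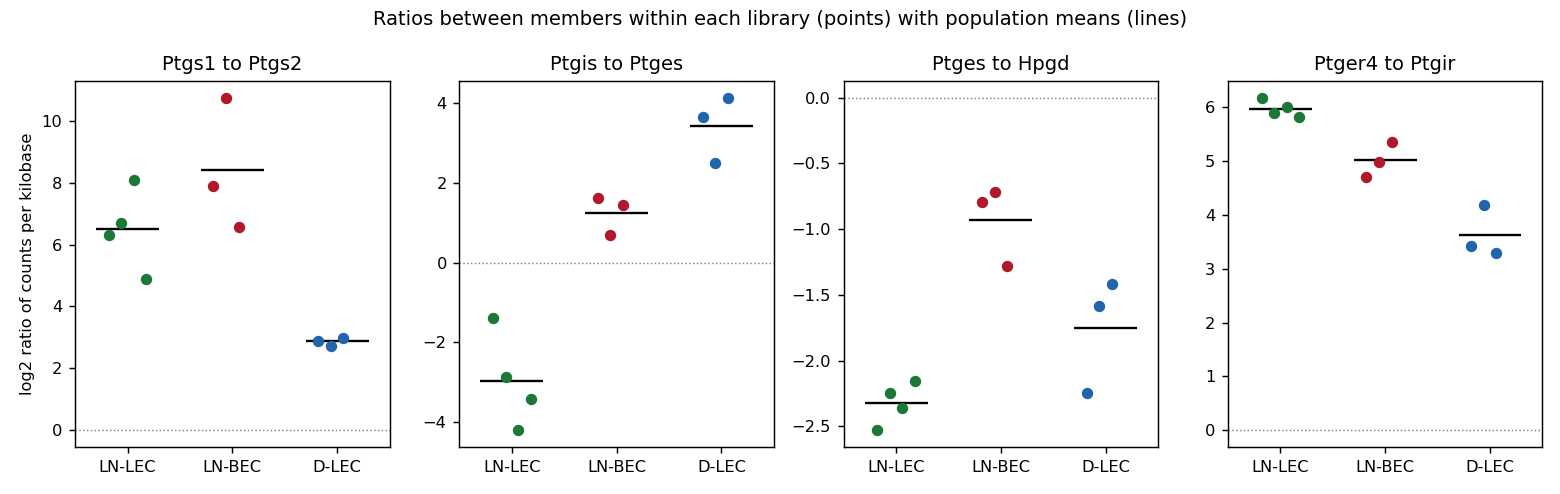
Log2 ratios between genes within each library (points) with population means (lines), on counts per kilobase. A dotted line marks equal amounts. Ptgis to Ptges lies below that line in the 4 LN-LEC libraries and above it in the 6 others.

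A further 36 genes of the pathway were listed by role. They covered release of arachidonic acid, other synthases, export and further breakdown, other receptors, and the lipoxygenase and leukotriene branch that uses the same substrate. Of the 36 genes, 34 were tested. Between LN-LEC and D-LEC, 9 were called toward each population and 16 were not called. Between LN-LEC and LN-BEC, 8 were called toward LN-LEC and 4 toward LN-BEC, and between D-LEC and LN-BEC, 8 were called in each direction. The shares called, 52.9%, 35.3% and 47.1%, lay near those of all genes tested.

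Upstream of the cyclooxygenases, the secreted phospholipase gene Pla2g5 was at 80.3 ± 20.2 normalized counts (SD, n = 4) in LN-LEC and 6.93 ± 3.77 (n = 3) in LN-BEC (log2 3.54, SE 0.48, adjusted p = 8.93e-05 by edgeR), and at 0 counts in all 3 D-LEC libraries. Against a floor of 3 counts per library, it was at least 25.98-fold higher in LN-LEC than there. Mgll, which frees arachidonic acid from a monoacylglycerol, went the other way, at 1376 ± 326 in LN-LEC, 5759 ± 659 in D-LEC and 7541 ± 1702 in LN-BEC, and LN-LEC were called lower than both LN-BEC (log2 −2.44, SE 0.19, adjusted p = 1.13e-06) and D-LEC (log2 −2.04, SE 0.19, adjusted p = 4.16e-06). The phospholipase gene Pla2g12a, at 24.1 FPKM in D-LEC, was called higher there than in LN-LEC (log2 fold change of LN-LEC over D-LEC −0.65, SE 0.12, adjusted p = 0.000710).

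Among other synthases, Ptges3, encoding the cytosolic prostaglandin E synthase and co-chaperone p23, was the highest of the listed genes in each population, at 176 FPKM in D-LEC, 162 FPKM in LN-BEC and 148 FPKM in LN-LEC, and was not called in any comparison. The gene listed as 2810405K02Rik (Fam213b), encoding a prostaglandin F synthase, was at 1339 to 1738 normalized counts in LN-LEC, 232 to 358 in D-LEC and 209 to 333 in LN-BEC. It was not tested, because symbols of clone names were left out. Akr1b3 was listed at 0 in every library and shares 96.4% of its exon bases with Gm6644, so that it could not be counted. Of the enzymes of further breakdown, Ptgr2 was at 25.7 FPKM in LN-LEC and 22.4 FPKM in LN-BEC. The exporter gene Abcc4 was at 163 ± 48.3 normalized counts in LN-LEC, 401 ± 48.2 in D-LEC and 1232 ± 100.4 in LN-BEC, called in all 3 comparisons.

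Of 8 other receptor genes, 4 were called higher in D-LEC than in LN-BEC (Ptger2, Ptgfr, Tbxa2r and Ptgfrn) and 3 higher in D-LEC than in LN-LEC (Ptgfr, Tbxa2r and Ptgfrn), where 22.5% and 21.7% of all genes tested were. In the opposite direction, Ptger1, the prostaglandin E2 receptor that raises calcium, was called lower in D-LEC (619 normalized counts on average) than in LN-BEC (931, adjusted p = 0.000408 by edgeR) and than in LN-LEC (767, adjusted p = 0.0157), where 25.6% and 24.1% of all genes were. LN-LEC exceeded LN-BEC in 2 of the 8, Ptger2 (adjusted p = 0.0223 by edgeR) and Ptgfrn (adjusted p = 0.000434), where 19.8% of all genes were higher. Ptgfrn, whose protein binds the prostaglandin F2α receptor and is not itself a prostanoid receptor, was at 11189 ± 1590 normalized counts in D-LEC where LN-LEC had 1706 ± 56.3 and LN-BEC 1180.0 ± 82.0 (LN-LEC over D-LEC, log2 −2.69, SE 0.10, adjusted p = 8.65e-11 by edgeR). Ptger2, the other prostaglandin E2 receptor that raises cyclic AMP, was at 41.9 ± 5.50 in LN-LEC, 47.5 ± 15.3 in D-LEC and 15.4 ± 9.63 in LN-BEC. The thromboxane receptor gene Tbxa2r was at 825 ± 145 in D-LEC and 444 ± 167 in LN-LEC (adjusted p = 0.0118 by edgeR). Ptger3, Ptgdr and Gpr44 (Ptgdr2) were under 21 normalized counts on average in each population. Counts of Ptger1 and Gpr44 are uncertain, since both share exon bases with other genes, and 39.0% of those of Gpr44 are also annotated to Ccdc86.

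In the lipoxygenase and leukotriene branch, Ltc4s encodes the leukotriene C4 synthase. It was at 2057 ± 303 normalized counts in LN-LEC (n = 4), with 199 ± 36.5 for D-LEC and 139 ± 53.3 for LN-BEC (n = 3 each). LN-LEC exceeded D-LEC by 3.40 on the log2 scale (SE 0.23, adjusted p = 3.64e-07 by edgeR) and LN-BEC by 3.92 (SE 0.24, adjusted p = 1.61e-07). Alox12, an arachidonate lipoxygenase also found in platelets, was at 1600.3 ± 126 in LN-BEC, 24.6 ± 8.70 in LN-LEC and 14.9 ± 9.64 in D-LEC, a log2 fold change of −6.01 (SE 0.25, adjusted p = 2.21e-09) for LN-LEC and −6.73 (SE 0.30, adjusted p = 2.39e-09) for D-LEC over LN-BEC. The cysteinyl leukotriene receptor gene Cysltr1 likewise peaked in LN-BEC (563 ± 43.7), while LN-LEC had 13.5 ± 8.73 (log2 −5.40, SE 0.39, adjusted p = 3.26e-07) and D-LEC 1.52 ± 1.67. Cysltr2 was at 9.39 ± 6.28 in LN-LEC and 19.2 ± 6.65 in LN-BEC and at 0 counts in all D-LEC libraries, so that it was at least 6.22-fold higher in LN-BEC than there. The RNA of Ltc4s was thus highest in LN-LEC, and that of Cysltr1 in LN-BEC. Alox5, the 5-lipoxygenase gene listed in this branch, was low throughout. LN-BEC libraries averaged 8.65 normalized counts of Alox5 (7 to 12 counts), D-LEC libraries 1.22 (0 to 2 counts) and LN-LEC libraries 2.99 (0 to 8 counts). Whether any population makes leukotrienes was not tested.

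The profile of each prostanoid gene was set against 13354 genes by the root mean square difference of log2 CPM, each gene centred on its own mean over the 10 libraries. The nearest to Ptger4 were Cxcl10 (0.39), Zeb2 (0.40) and F8 (0.45). For Slco2a1 they were Meox1 (0.14), Rusc1 (0.15) and Plp2 (0.18), and for Ptgs1 Lzts2 (0.20), Cdh23 (0.23) and Oasl1 (0.24). The genes high in LN-LEC had Art4, Ptk2b and Meox2 beside Ptges (0.30 to 0.36), Larp6, Fam171b and Igdcc4 beside Hpgd (0.35 to 0.39) and Scara3, Pgpep1l and Phyhd1 beside Ptgir (0.36 to 0.41). Abcb1a (0.47), which encodes a drug efflux pump, lay nearest to Ptgds, ahead of Rapgef4 (0.56) and Lims2 (0.57), and Cdc25a (0.16), Zfp238 (0.21) and Tcf3 (0.21) to Tbxas1. The nearest profiles lay farther off for Ptgs2 (Ncs1 0.53, Wnt5a 0.62, Il17re 0.67) and Ptgis (Hif3a 0.70, Efemp1 0.71, Podn 0.75). These are descriptions over libraries that share their normalization, and the small values of Slco2a1 and Tbxas1 go with their small range between populations.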

How the data were processed

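The deposited values are raw counts of fragments per gene symbol, made by the authors: reads of amplified cDNA (Ovation RNA-Seq System V2) were trimmed, aligned to mm9 with STAR and counted on exons with featureCounts 1.4.4, both ends mapped, strand ignored and multiply mapped fragments left out. The authors also deposited exon length. The 10 genes and all lists were chosen with earlier results of these data known. Counts were divided by DESeq2 1.42.0 size factors for levels (mean ± SD) and by TMM-scaled library size and exon length for FPKM. Tests used edgeR 4.0.16 in R 4.3.3 (TMM, robust quasi-likelihood F test, 1 mean per population, all 10 libraries) on 15330 genes whose mean normalized count reached 1 in some population, after 3802 predicted and clone symbols were left out. P-values were adjusted by Benjamini-Hochberg within each comparison, and the SE follows from F (log2 fold change over √F). On simulated data, the fit recovered 73 to 77% of 2-fold and 97 to 99% of 8-fold changes over the 3 comparisons. Of the simulated calls, 5.38 to 5.91% were false. Only 100 genes were changed at each fold and all libraries otherwise shared 1 composition, unlike the real data. Libraries of 22429940 to 48906070 fragments give a precision set by the spread between pools, since libraries differed by more than counting error. Replicates are numbered in accession order, which pairs nothing. The genes named were the 10, of the other pathway genes up to 4 per comparison with the largest called change and the 4 highest per population, and for each of the 10 the 3 nearest profiles. Abcc4, Ptges2, Ptger1, Ptger2, Ptgfr, Tbxa2r, Ptger3, Ptgdr, Alox5, Hpgds and the genes with shared exons were named after their values were seen.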

Additional observations from a re-analysis of the deposited data

How the results depend on the processing

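The fold changes were recomputed under 21 alternatives: other scaling factors, DESeq2, other filters, fits to 2 populations, fits without robust estimation, 10 fits that each left out 1 library, LN-LEC 4 and LN-BEC 3 left out together, and, chosen after seeing the data, D-LEC 2 left out as well. Of 30 fold changes, 21 kept their direction and their side of the threshold under every alternative that gave a value. Of 22 called, 4 were lost under some alternative (Ptgds between the LEC populations, Ptgis between the lymph node populations, and Ptges and Tbxas1 between D-LEC and LN-BEC). Of those not called, 3 were called under some alternative (Ptgs2 in 2 comparisons with D-LEC, and Slco2a1 between D-LEC and LN-BEC).

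Fold changes of 2 genes changed sign, none of them called. Ptgs2 for LN-LEC over LN-BEC was −0.28 without LN-LEC 4 and −0.10 without LN-BEC 2, and ranged from −0.28 to 1.51 over the fits that left out 1 library. Hpgd for D-LEC over LN-BEC was 0.079 without LN-BEC 1 and 0.055 without D-LEC 2 (range −0.58 to 0.079 over those fits), 0.0028 without LN-LEC 4 and LN-BEC 3, and 0.25 when D-LEC 2 was left out too. The cause was not tested. The numbers of genes called were 6096 to 7790 between LN-LEC and D-LEC, 5064 to 6467 between LN-LEC and LN-BEC, and 6200 to 8183 between D-LEC and LN-BEC, and of the 10 genes 7 to 9, 7 to 8 and 5 to 8. The 4 ratios kept an adjusted p under 0.05 in all fits without 1 library, the highest being 0.0179. Under a filter of a mean FPKM of at least 1, Ptgs2 and Tbxas1 were too low to be tested. No paired analysis was possible because the labels give no replicate numbers that populations share. Depth limits the values with a library under 100 counts: Ptgs2, Tbxas1 and Ptgis in every population, Ptgds in both LEC populations (10 to 20 counts in LN-LEC), and Ptges, Hpgd and Ptgir in D-LEC and LN-BEC (8 to 24 counts for Ptgir in D-LEC).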

Other observations

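LN-BEC 2 was the lowest LN-BEC library for 8 of the 10 genes, D-LEC 2 the lowest D-LEC library for 6 and LN-LEC 3 the lowest LN-LEC library for 4. The share over all genes tested was not computed, so that these counts cannot be read as a trait of the 10 genes. Among the 10 genes, profiles over the libraries lay nearest for Ptges and Hpgd (root mean square difference of centred log2 CPM 0.62), Ptges and Ptgir (0.69) and Tbxas1 and Slco2a1 (0.71), and farthest for Ptgds and Ptger4 (4.29), which share neither their highest population nor their lowest.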
